A study of Mus musculus with 6 samples.

Results

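Heat shock proteins and their partner chaperones were followed in the ventricles of wild-type (WT) mice and of mice with Klf15 loss of function (KO) at 3 ages. The members were chosen by name. They were the small heat shock proteins (Hspb genes and Cryab), the HSP70, HSP110, HSP90 and mitochondrial chaperonin genes, the cytosolic chaperonin subunits (Tcp1 and Cct2 to Cct8), the J proteins (Dnaj genes), Bag1 to Bag6 and Hsf1. Of the 24391 gene entries in the table, 90 symbols matched. A mean of at least 10 normalized counts over the 18 libraries left 79 members among 13032 tested entries. The lowest members were Hspb11, with a mean of 31.9, and Dnajc17, with 36.1, and the highest of the 11 left out were Dnajc6, with 5.21, and Dnajb3, with 5.1.

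Per the labels, all mice were on the C57BL/6 background, tissue was cardiac ventricles and total RNA was sequenced. The 6 groups were WT and KO at postnatal day 10 (P10), 4 weeks (4w) and 20 weeks (20w), with 3 libraries each. The labels give neither how the loss of function was made, nor in which cells, nor the sex of the mice. Nothing in them states that each library was made from its own mouse, so a p-value here reflects only library-to-library spread, which may be technical.

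Chaperones hold unfolded proteins in solution, refold them with ATP or pass them on for degradation. Small heat shock proteins bind unfolding proteins without using ATP. HSP70 proteins bind and release clients in an ATP cycle that J proteins start and that HSP110 and BAG proteins, as nucleotide exchange factors, end. HSP90 acts later, on signalling proteins and, in muscle, on myosin. Chaperonins are closed rings in which proteins fold, with Hspd1 and its lid Hspe1 in mitochondria and the Tcp1 and Cct subunits in the cytosol, where actin and tubulin are clients. Hsf1 is the transcription factor that induces many of these genes after heat or proteotoxic stress. In heart muscle, Cryab is a chaperone of desmin, and Hspb8 with Bag3 clears damaged filamin from the Z disc. KLF15, the factor lost here, is a zinc finger protein that binds GC-rich DNA and regulates cardiac metabolism.

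Between 9504538 and 29278351 reads per library were assigned to genes. Klf15 stood between 139.7 and 164.3 normalized counts in P10 WT and between 17.4 and 25.4 in P10 KO libraries, and between 860.2 and 1282.7 in later WT and between 28.4 and 54.8 in later KO libraries. Rn45s, the ribosomal RNA precursor, took 30.781% of reads in the second 4w KO library, against at most 2.718% elsewhere. The 4 libraries highest in Rn45s were the second WT and the second KO library at 4w and at 20w. The fit without them removed a library from every group at those ages and none at P10, so replication fell along with Rn45s. All 6 P10 libraries held both Xist (4813.8 to 11077.3) and the Y-linked Ddx3y, whereas Xist was at most 9.4 in the 12 later libraries, so age and the sex makeup of the libraries cannot be told apart. Each P10 library thus held female-type and male-type RNA together, so the spread among P10 libraries may not be that between single mice. Xist was at 11077.3, 5228.7 and 9514.1 in P10 WT and at 6611.8, 4813.8 and 5545.4 in P10 KO. Ddx3y was at 713.4, 1111.8 and 633.6 in P10 WT and at 524.7, 1187.4 and 1197.5 in P10 KO. The sex makeup may therefore differ between the genotypes at P10 too, and its part was not tested. At 20w, the first WT and the third KO library were highest in the summed level of 13 immediate early genes, which are induced within minutes by stress or handling. Their sums were 14203.2 and 11810.3, and the lowest sum at that age was 5002.6. The skeletal muscle gene Myh2 was at 692.2 in the second 4w WT library.

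The members together took between 0.91 and 0.987% of the reads, ribosomal Rn45s left out, in the P10 WT libraries and between 0.857 and 0.885% in the P10 KO libraries. The shares were between 1.114 and 1.188% in WT and 1.085 and 1.116% in KO at 4w. At 20w they were between 1.126 and 1.156% in WT and between 1.248 and 1.407% in KO. The KO libraries thus lay below the WT libraries at P10 and above them at 20w, and at 4w the ranges overlapped by 0.002 percentage points.

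Levels were compared between genes per kilobase of exon. In 20w WT ventricles the most abundant member was Cryab, at 11321.0 normalized counts per kilobase, followed by Hspb7 at 8521.0, Hsp90ab1 at 6571.4, Hspa9 at 4607.2 and Hspb8 at 3844.5. At P10 the order at the top was Hspb7 (4367.3), Cryab (4034.8) and Hsp90ab1 (3965.5). Small heat shock proteins therefore held 3 of the 5 highest levels per kilobase at 20w. The stress-inducible Hspa1a and Hspa1b were near the bottom in most libraries, with 10.2 to 15.3 and 17.4 to 25.0 normalized counts at P10.

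Some counts are uncertain because the gene shares sequence with a copy or an overlapping gene. In the GRCm38 annotation, at least 10% of the 50-base words of the exons occurred elsewhere in 19 members. Among genes described below, the shares were 62.3% for Hspa1b, 50.1% for Hspb1, 47.5% for Hsp90aa1, 42.7% for Dnaja4 (through its neighbour Wdr61), 42.1% for Hspd1, 39.4% for Hspa8, 22.8% for Hspe1, 21.0% for Dnajb6, 20.6% for Dnaja1, 18.7% for Dnajc17, 18.2% for Hspa1a, 13.9% for Tcp1 and 13.3% for Cryab. Hspb2 shares 24.4% with the overlapping Cryab. How reads on shared words were assigned is not given in the sources used here.

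Between P10 and 4w, 40 of the 79 members rose in WT ventricles and 4 fell (limma, adjusted p under 0.05). Their median log2 fold change was 0.27 against -0.01 over all genes. Among all 13032 genes tested, 28.7% were called higher and 29.2% lower. With the libraries scaled to a common total of reads, where the median of all genes is -0.26, 21 members were higher and 11 lower. Of all genes tested, 1569 were then called higher and 4789 lower. In bulk tissue, a change in the number of cells of a type and a change in RNA per cell cannot be told apart. Over the same interval 9 of 10 cardiomyocyte markers were higher, with summed levels of 772140.6 to 856099.2 at P10 and 1079614.3 to 1249845.4 at 4w. Of the fibroblast markers 7 of 8 were lower, with sums of 76787.9 to 88048.9 and then 26066.4 to 31819.5. Endothelial markers were lower for 6 of 7 (23914.2 to 24632.4, then 15148.6 to 18645.4), and macrophage markers were higher for 7 of 7 (1917.0 to 2322.8, then 4202.9 to 4960.7). Their part in the chaperone changes was not tested.

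The small heat shock proteins had 6 of 8 members higher at 4w. Cryab was at 4802.3, 5723.1 and 5101.5 in the P10 WT libraries and at 12854.5, 13322.2 and 14358.8 in the 4w WT libraries. The groups were far apart (log2 fold change 1.38 ± 0.10 SE, adjusted p = 7.58e-10). Hspb8, the partner of Bag3, rose 2.29-fold, from 2273.2, 2703.1 and 2829.0 to 5864.1, 5762.8 and 6177.9 (adjusted p = 7.76e-10). Hspb6, also called HSP20 and a target of protein kinase A in the heart, rose by 1.00 (adjusted p = 2.13e-05).

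The J protein gene Dnajc28 had the smallest adjusted p of all members. It was at 350.6, 347.6 and 375.6 at P10 and at 993.3, 1031.8 and 1187.6 at 4w, and the groups did not overlap (1.58 ± 0.11 SE, adjusted p = 4.37e-10). Dnajb2, a neuronal and muscle J protein that binds ubiquitin, rose by 1.11 (adjusted p = 8.62e-09). Bag1, an exchange factor that links HSP70 to the proteasome, rose by 0.83 (adjusted p = 3.38e-09), and Hspa9, the HSP70 of the mitochondrial matrix, by 0.84 (adjusted p = 2.08e-08). Both mitochondrial chaperonin genes were higher, Hspd1 by 0.52 (adjusted p = 9.08e-05) and Hspe1 by 0.90 (adjusted p = 8.34e-05). All 9 tested genes of the mitochondrial folding and import list were higher as well, among them the protease subunits Clpp (0.70) and Clpx (0.64), the disaggregase Clpb (0.66) and the import motor gene Timm44 (0.65).

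The 4 members that fell came from other roles. Dnajc9, a histone chaperone used in DNA replication, fell by 0.69 (adjusted p = 2.52e-05), from 230.6, 275.5 and 288.8 to 153.1, 160.8 and 176.3. Hspa2, best known from sperm cells, fell by 0.50 (adjusted p = 0.00414), the microsomal Hspa13 by 0.25 (adjusted p = 0.0181) and Hspa12b, an endothelial HSP70 relative, by 0.27 (adjusted p = 0.0312). The Hspa12b groups overlapped. The Hspa13 call was lost without the third P10 WT (adjusted p = 0.062) or the first 4w WT library (0.0789), and the Hspa12b call without any 1 of 4 libraries (up to 0.137, without the second 4w WT library). The cytosolic chaperonin had 5 of 8 subunits higher, by at most 0.31 on the log2 scale (Tcp1, adjusted p = 0.00102). All 8 had positive fold changes, but scaled to a common total 0 were called and 5 of 8 were negative.

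Between 4w and 20w the WT changes were fewer. There were 13 members higher and 5 lower, and 13.3% of all genes were called higher and 11.8% lower. Scaled to a common total, 3 were higher and 4 lower, with the median of all genes 0.16 below 0. Of all 13032 genes, 406 were then higher and 1365 lower. Hsph1, the HSP110 exchange factor induced by heat, had the smallest adjusted p. It was at 544.9, 656.5 and 543.9 at 4w and at 1176.3, 1003.3 and 959.8 at 20w (0.85 ± 0.15 SE, adjusted p = 0.000448). The endosomal J protein Dnajc13 (0.37, adjusted p = 0.000787), Bag3 (0.57, adjusted p = 0.00209), Dnajc16 (0.41, adjusted p = 0.00431), Hspa8 (0.75, adjusted p = 0.0128) and Hspb7 (0.41, adjusted p = 0.0132) followed. Hspa8, the constitutive HSP70 of the cytosol, had overlapping groups. The 5 lower members were Dnajc5, the cysteine string protein of secretory vesicles (-0.24, adjusted p = 0.00853), Bag5 (-0.30, adjusted p = 0.0138), Cct2 (-0.22, adjusted p = 0.0312), Cct5 (-0.25, adjusted p = 0.0433) and Hspb2 (-0.34, adjusted p = 0.0466). Without the first or the second 4w WT library 9 members were called. The calls of Hspb7 (adjusted p = 0.0632 without the first 4w WT library) and Bag5 (0.0543 without the second) each rested on 1 library. Those of Hspa8, Cct2, Cct5 and Hspb2 were lost without any 1 of 3, 4, 7 and 12 libraries, with adjusted p of up to 0.0792, 0.104, 0.174 and 0.202. For Cct5 and Hspb2 these included P10 and KO libraries, which do not enter the difference. With a common total, Dnajc13 (adjusted p = 0.307), Dnajc16 (0.243), Hspb7 (0.236), Bag5 (0.0546), Cct2 (0.075) and Cct5 (0.0558) were not called. Without the 4 libraries highest in Rn45s, Hspa8 (0.0548), Hspb7 (0.115), Bag5 (0.057), Cct2 (0.21), Cct5 (0.239) and Hspb2 (0.167) were not called.

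**Figure D1:**
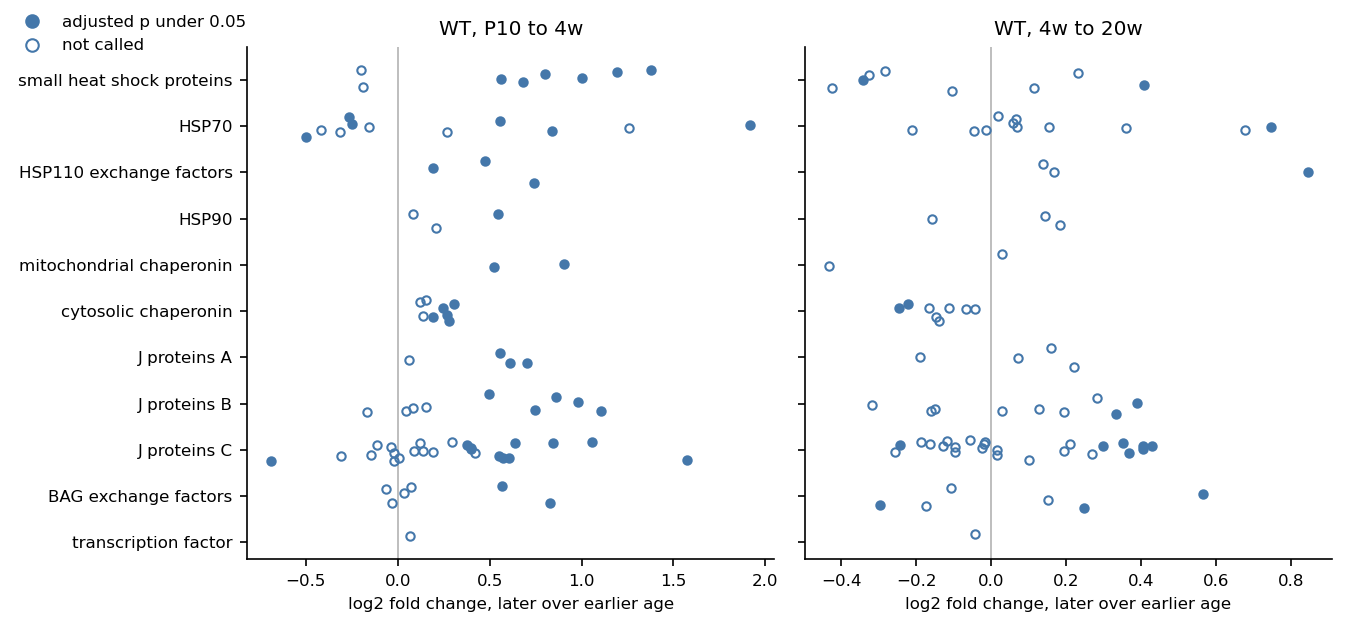
Log2 fold change between adjacent ages in WT ventricles for the 79 members, in rows by class, with P10 to 4w at the left and 4w to 20w at the right. Each point is 1 gene, filled where the limma adjusted p was under 0.05. Most points lie right of 0 in the left panel, where 40 members were higher and 4 lower, and the points lie on both sides of 0 in the right panel.

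KO was compared with WT at each age. At P10, 0 members were higher and 4 lower in KO than in WT, against 0.591% of all genes called higher and 1.67% lower. At 4w 1 was higher and 3 were lower, against 2.99% and 2.66% of all genes. At 20w 10 were higher and 1 was lower, against 3.21% and 4.28%. The P10 count was 2 with a common total or without any 1 of 4 P10 libraries (the second or the third WT, the first or the third KO), 6 with DESeq2 and 19, all lower, with library quality weights. Among all 13032 genes, 218 were lower at P10 in the main fit, 84 with a common total and 914 with library quality weights. DESeq2 called 406 of 13026 lower. The 4w count of 4 was 2 without the second 4w KO library. The 10 of 79 at 20w make 12.7%, and the 4 of 79 at P10 make 5.1%. The median log2 fold change of the members was -0.09 at P10, 0.01 at 4w and 0.08 at 20w, and that of all genes was -0.01, 0.00 and 0.01. At P10, 60 of 79 members had negative fold changes, and at 20w, 54 of 79 had positive ones. Those counts of signs were the same with a common total, and at 4w the common total put 76 of 79 below 0, where the median of all genes also fell to -0.24.

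**Figure D2:**
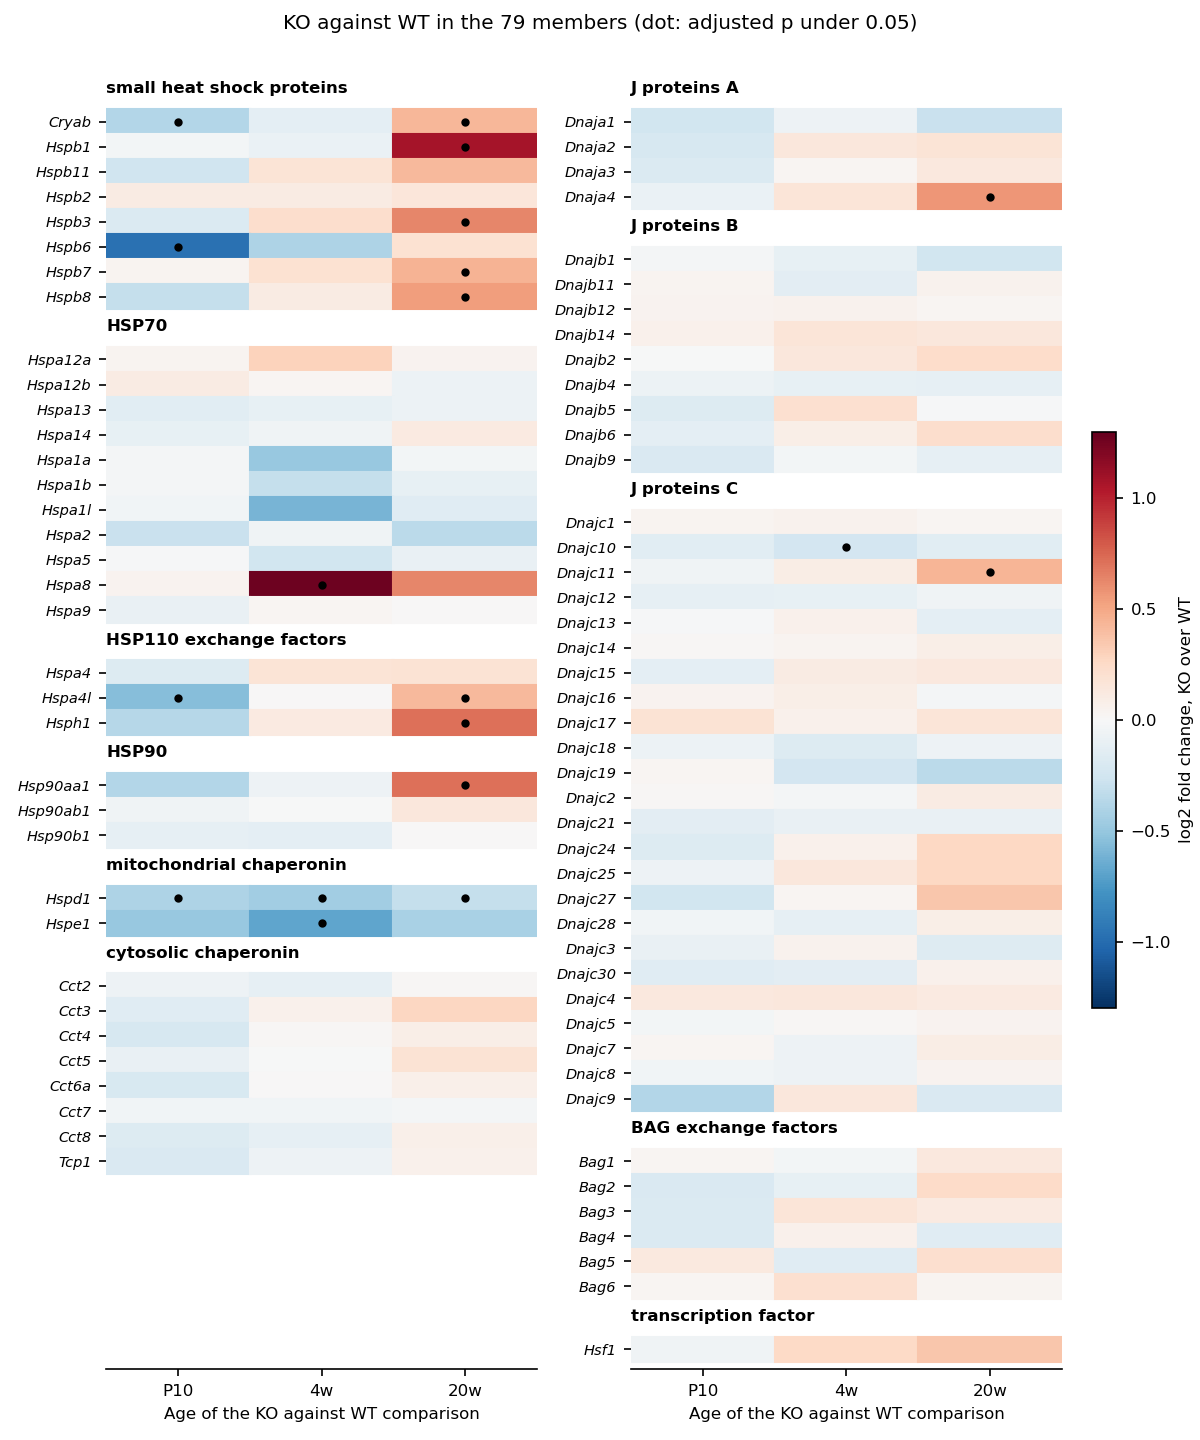
Log2 fold change of KO over WT at P10, 4w and 20w (columns) for each of the 79 members (rows, grouped by class), with red higher and blue lower in KO. Black dots mark a limma adjusted p under 0.05. Dots on blue stand at P10 and 4w for Hspb6, Hspa4l, Cryab, Hspd1, Hspe1 and Dnajc10, and 10 dots on red stand at 20w.

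Cell type markers were compared between genotypes too. At P10, 0 markers were called from the lists for macrophages, atria, heart muscle cells, fibroblasts, endothelium and mural cells. At 4w the cardiomyocyte gene Ryr2 was higher in KO (0.41, adjusted p = 0.0289), and the fibroblast genes Dcn (-0.35, adjusted p = 0.00824) and Dpt (-0.34, adjusted p = 0.0302) were lower. At 20w the cardiomyocyte genes Mybpc3 (0.53, adjusted p = 0.00396) and Ckm (0.46, adjusted p = 0.0282) were higher, 2 of 10. The summed cardiomyocyte markers were then between 1202624.6 and 1250485.0 in WT and between 1241333.5 and 1365874.5 in KO. The Ckm call was lost without any 1 of 4 libraries (adjusted p up to 0.137), the Ryr2 call without any 1 of 5 (up to 0.14), the Dcn call without any 1 of 2 (up to 0.0556) and the Dpt call without any 1 of 3 (up to 0.175). Macrophage markers had 0 of 7 called, yet their sums of 2899.8 to 3248.5 in WT and 3443.1 to 3777.7 in KO did not overlap. Fibroblast sums overlapped, at 14886.1 to 15515.2 and 13512.2 to 16653.5. One macrophage marker, Csf1r, had a KO effect that differed between P10 and 20w (0.47, adjusted p = 0.0437). Of the 4 atrial markers 0 were called at any age, with log2 fold changes down to -1.43 at P10 and up to 0.85 at 20w, both for Nppa. Nppa, also a gene of stressed ventricle, was at 2004.9, 2715.5 and 1969.8 in 20w WT and at 2623.0, 2647.9 and 9024.1 in 20w KO, the third KO library standing apart. The atrial sums were 2742.6 to 3817.5 in WT and 3226.4 to 9602.4 in KO at 20w, and 846.2 to 4686.9 and 705.2 to 1271.0 at P10. The globin genes Hba-a1, Hba-a2, Hbb-b1 and Hbb-b2 were at 0 in every library. The part of these cell types in the chaperone changes was not tested.

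The small heat shock proteins were the class with the most calls at 20w. Of the 8, 5 were higher in KO and 0 lower, all 8 had positive fold changes, and the median was 0.44. With a common total, edgeR or DESeq2, all 8 were again positive, and 2, 5 and 5 were called. At P10 the same class had 0 higher and 2 lower, and at 4w 0 either way.

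Hspb8 stood at 7580.9, 6886.7 and 6477.2 normalized counts in the 20w WT libraries and at 9711.5, 9850.7 and 11044.0 in the 20w KO libraries. Every KO library was above every WT library (log2 fold change 0.55 ± 0.09 SE, adjusted p = 0.000331). At P10, the levels were 2273.2, 2703.1 and 2829.0 in WT and 2243.6, 2147.9 and 1907.0 in KO (-0.31), and that difference did not pass the test in limma. DESeq2 on the recovered reads called it lower (-0.31, adjusted p = 0.0207).

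Hspb1, known as HSP25 in mice, caps and stabilizes actin filaments. It was at 330.5, 282.9 and 346.6 in 20w WT libraries and at 428.9, 646.8 and 1102.5 in 20w KO libraries. The groups did not overlap, and the third KO library was above 3 times the level of any WT library (1.08 ± 0.21 SE, adjusted p = 0.00234). At P10 and 4w its values ranged from 205.3 to 240.7 and from 311.0 to 415.8 over both genotypes, without a call. Without the 4 libraries highest in Rn45s the 20w difference was 1.02 and not called (adjusted p = 0.0596).

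Hspb7, the cardiovascular heat shock protein that binds filamin C, was the most abundant of the class at P10. At 20w it was at 24081.9, 23688.2 and 23013.6 in WT and at 25796.6, 34571.0 and 38077.7 in KO (0.46 ± 0.11 SE, adjusted p = 0.0163). The first KO library lay just above the WT range, and the call was lost without the second (adjusted p = 0.0527) or the third WT library (0.0661) and without the second (0.0635) or the third KO library (0.111). Nor was it called with a common total (0.45, adjusted p = 0.105) or without the 4 libraries highest in Rn45s (0.41, adjusted p = 0.174).

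Hspb3, a muscle protein that pairs with Hspb2, was at 92.4, 98.7 and 127.0 in 20w WT and at 159.1, 169.3 and 162.4 in 20w KO (0.63 ± 0.16 SE, adjusted p = 0.0181). The KO libraries lay close together above the WT range. The call was lost without the first (adjusted p = 0.0808) or the second WT library (0.0709) and without the second (0.0543) or the third KO library (0.0544). It was also lost with a common total (0.63, adjusted p = 0.0579) and without the 4 libraries highest in Rn45s (0.56, adjusted p = 0.166).

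Cryab was lower in KO at P10 and higher at 20w. At P10 it was at 4802.3, 5723.1 and 5101.5 in WT and at 3440.3, 4314.5 and 4297.7 in KO (-0.38 ± 0.10 SE, adjusted p = 0.048). That call stood just under the threshold and was lost without any 1 of 12 libraries, with an adjusted p of up to 0.21 without the second P10 WT library. The 12 include 4w and 20w libraries. Removing any 1 of those left the difference at -0.38, with an adjusted p between 0.0519 and 0.0659. At 20w it was at 14525.9, 14386.9 and 14933.6 in WT and at 18925.1, 17957.4 and 22548.0 in KO (0.43 ± 0.10 SE, adjusted p = 0.0093). The groups did not overlap at either age, and the 20w call was lost without the third KO library (adjusted p = 0.067). The difference with a common total was -0.38 at P10 (adjusted p = 0.321) and 0.43 at 20w (adjusted p = 0.0998), with no call. The P10 call was also lost with no filter on low values (0.0941) and without the 4 libraries highest in Rn45s (0.086). Those 4 include no P10 library, and the P10 difference stayed at -0.38.

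Hspb6 showed the largest P10 difference among the members. It was at 2266.7, 2620.1 and 2247.3 in P10 WT and at 874.2, 1482.1 and 1378.1 in P10 KO libraries. All 3 KO libraries were below the WT range, the first the furthest (-0.97 ± 0.16 SE, adjusted p = 0.00156). At 4w the levels of 4070.7, 5073.0 and 5199.1 in WT and 4255.0, 3834.5 and 2829.1 in KO overlapped. At 20w they were 4287.0, 4498.5 and 4490.1 in WT and 5243.4, 4596.7 and 5373.1 in KO, again without a call (0.19). Hspb2 (0.16) and Hspb11 (0.42), named for the family but known as an intraflagellar transport subunit, had no call at 20w either.

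**Figure D3:**
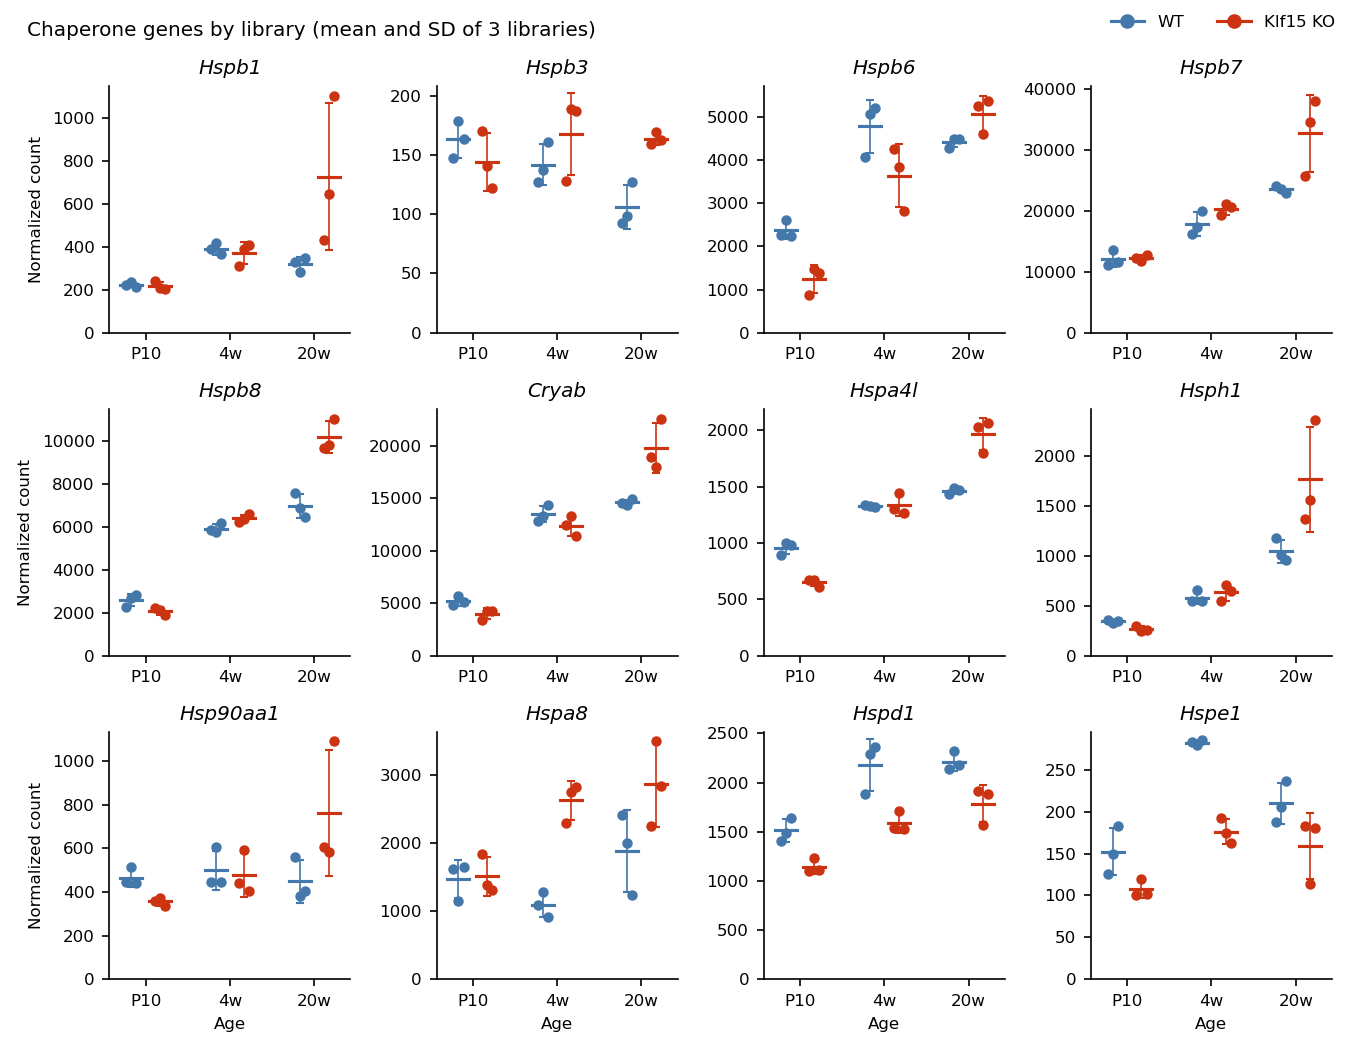
Normalized counts per library (y, linear axes from 0) at P10, 4w and 20w (x) for 12 members, WT in blue and KO in red, with the mean and SD of 3 libraries. Hspb6 and Hspa4l lie lower in KO at P10, Hspb1, Hspb8, Cryab, Hspa4l and Hsph1 lie higher in KO at 20w, Hspa8 lies higher at 4w, and Hspd1 lies lower in KO at every age.

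Of the 3 HSP110 exchange factors, 2 were higher in KO at 20w. Hspa4l, an HSP110 protein abundant in testis, changed in opposite directions at P10 and 20w. At P10 it was at 891.5, 997.3 and 980.9 in WT and at 674.0, 670.7 and 611.5 in KO (-0.55 ± 0.07 SE, adjusted p = 0.000153). At 4w the values were 1339.5, 1327.2 and 1317.5 in WT and 1300.4, 1444.5 and 1265.1 in KO (0.01, no call). At 20w they were 1430.0, 1490.2 and 1466.4 in WT and 2030.6, 1800.4 and 2065.5 in KO (0.42 ± 0.07 SE, adjusted p = 0.000815). The spread within each group was small against both differences, the groups overlapped only at 4w, and neither call was lost without any 1 library. The 20w difference was 0.42 but not called with a common total (adjusted p = 0.0861).

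Hsph1 was at 1176.3, 1003.3 and 959.8 in 20w WT and at 1367.7, 1558.0 and 2356.1 in 20w KO (0.72 ± 0.15 SE, adjusted p = 0.00495). The groups did not overlap, and the third KO library stood highest. Hsph1 at P10 was at 357.2, 332.7 and 348.0 in WT and 302.6, 243.6 and 259.8 in KO (-0.37), below the WT range without a call. Hspa4 had no call at any age, with 0.19 at 20w.

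The HSP70 genes had 1 call in 11 at 4w and 0 at P10 and 20w. Hspa8 was at 1085.4, 1284.3 and 910.4 in 4w WT and at 2299.8, 2753.1 and 2832.2 in 4w KO. Every KO library exceeded the highest WT library by more than 1000 normalized counts (1.27 ± 0.21 SE, adjusted p = 0.000665), and the call held without any 1 library. At 20w the WT libraries were at 2421.5, 2005.0 and 1234.3 and the KO libraries at 2257.9, 3499.5 and 2839.0 (0.63, no call), and the groups overlapped. Hspa5, the HSP70 of the endoplasmic reticulum, was at 9186.7, 10175.7 and 9745.3 in 4w WT and 8071.0, 8581.9 and 7918.7 in 4w KO (-0.24). It was not called in limma, but DESeq2 called it lower (adjusted p = 0.0206). Hspa9 had log2 fold changes of -0.10, 0.02 and 0.01 at the 3 ages, without a call.

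Of the HSP90 genes, Hsp90aa1, the stress-inducible cytosolic form, was higher in KO at 20w. It was at 562.3, 379.9 and 404.6 in WT and at 606.0, 583.1 and 1094.0 in KO (0.72 ± 0.20 SE, adjusted p = 0.0303). The lowest KO library was only just above the highest WT library. The call was lost without the second (adjusted p = 0.128) or the third WT library (0.115) and without the third KO library (0.189), where the log2 fold change was 0.43. It was also lost with no filter on low values (0.0542) and without the 4 libraries highest in Rn45s (0.0535). The constitutive Hsp90ab1 was between 16289.5 and 16712.1 in WT and between 16896.8 and 20096.5 in KO (0.15, no call). The endoplasmic Hsp90b1 showed 0.01 at 20w, also without a call.

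Of the mitochondrial chaperonin genes, Hspd1 was lower in KO at each age and Hspe1 at 4w. Hspd1, the ring subunit, was at 1406.1, 1488.5 and 1643.7 in P10 WT and at 1097.0, 1228.3 and 1108.1 in P10 KO (-0.40 ± 0.09 SE, adjusted p = 0.0296). At 4w it was at 1878.9, 2291.1 and 2367.0 in WT and at 1535.5, 1708.3 and 1525.2 in KO (-0.45 ± 0.09 SE, adjusted p = 0.00637). At 20w it was at 2134.9, 2325.7 and 2180.0 in WT and at 1911.5, 1567.4 and 1881.7 in KO (-0.31 ± 0.09 SE, adjusted p = 0.0465). At all 3 ages the KO libraries lay below every WT library. The 4w call held without any 1 library. The P10 call was lost without the second (adjusted p = 0.0774) or the third WT library (0.162) and without the first (0.0977) or the third KO library (0.117). The 20w call was lost without any 1 of 11 libraries, P10 and 4w libraries among them. The adjusted p was up to 0.199, without the second 20w KO library. It was also lost by edgeR (0.0517), with no filter on low values (0.0684), with a common total (0.293) and without the 4 libraries highest in Rn45s (-0.19, adjusted p = 0.415). The P10 call was lost as well with a common total (-0.40, adjusted p = 0.244).

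Hspe1, the lid of the ring, was at 283.0, 280.0 and 285.3 in 4w WT and at 192.1, 174.5 and 162.1 in 4w KO (-0.68 ± 0.16 SE, adjusted p = 0.0143). The WT values were nearly equal and all KO values were far below them, yet the call was lost without the second (adjusted p = 0.0509) or the third KO library (0.0531). Without the 4 libraries highest in Rn45s it was -0.68 and not called (0.0669). At P10, levels of 125.6, 149.3 and 182.5 in WT and 100.9, 119.7 and 101.4 in KO (-0.49) and at 20w of 188.0, 205.6 and 236.8 and 183.0, 113.9 and 180.9 (-0.42) also put every KO library below the WT range, without a call. Of the 9 tested partners in mitochondrial folding and import, 0 were called in KO at any age.

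Hspd1 and Hspe1 are divergent neighbours, and the stretch between their start sites is shown because both genes were lower in KO at 4w and it is the place where a heat shock element was found. In the RefSeq promoters of GRCm38.p6, a build other than the authors' mm9, the start sites lie 215 bases apart on chromosome 1. The capitals mark 2 overlapping matches to a heat shock element, searched on both strands as GAA, TTC and GAA, or TTC, GAA and TTC, with any 2 bases between the units.
Hspd1-Hspe1 shared promoter, chr1:55088053-55088082, + strand: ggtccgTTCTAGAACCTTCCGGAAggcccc
The first base of the match lies 89 bases before the Hspe1 start, and its last base lies 144 bases from the Hspd1 start.

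RefSeq promoters were found for 63 of the 79 members, 82 promoters in all, and the 250 bases before each start were searched. The heat shock element was in 4 of 82 (4.88%), against 153 of 32851 promoters (0.47%). They belonged to Hspd1 and Hspe1, which share the site above, and to Dnajb6, whose overlapping promoters hold the same site. The 4 promoters thus do not hold separate sites. Of the 10 members higher in KO at 20w, 7 had a promoter in the table (Hspb8, Hspa4l, Hspb1, Dnaja4, Hsph1, Hspb7 and Hspb3), and these letters were not in any of them. Nor were they in the promoters of the heat-inducible Hspa1a, Hspa1b and Dnajb1, so their absence does not show that a gene lacks the element. A GC box of the kind bound by Sp and KLF factors, searched as CCCCNCCC on both strands, was in 41 of 82, against 10117 of 32851 (30.8%). It was in 37 of the 63 members with a promoter, most of them not called in KO. Among members called in KO at any age, it was in the promoters of Hspd1, Hspe1, Hspb1, Hspb6, Hspb8 and Dnaja4 and not in those of Hspa4l, Hsph1, Hspb7, Hspb3 and Dnajc10. The motifs did not overlap each other in any of these promoters, and a match is a description of the letters only.

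The cytosolic chaperonin had 0 of 8 subunits called at any age in KO. At P10 all 8 fold changes were negative, from -0.22 to -0.05, and at 20w 7 of 8 were positive, up to 0.28. Tcp1 was at 2621.9, 2735.5 and 2787.6 in P10 WT and at 2435.9, 2391.5 and 2270.6 in P10 KO. The Tcp1 groups did not overlap, but the difference of -0.20 did not pass the test. At 20w Tcp1 was at 2935.2, 3026.4 and 3028.4 in WT and at 3170.2, 2887.2 and 3336.1 in KO, and the groups overlapped. The prefoldin subunits, which hand actin and tubulin to this ring, had 0 of 6 called at each age.

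Of the 37 J proteins, 2 were higher in KO at 20w and 1 was lower at 4w. Dnaja4, a cytosolic J protein of the A class, was at 1868.6, 2003.3 and 2169.0 in 20w WT and at 2482.6, 2792.1 and 3883.1 in 20w KO (0.58 ± 0.11 SE, adjusted p = 0.00234). Every KO library was above the WT range and the call held without any 1 library. Dnajc11, a protein of the mitochondrial inner membrane organizing complexes, was at 678.2, 776.3 and 691.6 in WT and at 823.0, 1017.8 and 1084.0 in KO (0.44 ± 0.10 SE, adjusted p = 0.00706). Its groups did not overlap, and its call was lost without the third KO library (adjusted p = 0.0531). Scaled to a common total it was 0.43 and not called (adjusted p = 0.104), and without the 4 libraries highest in Rn45s 0.46 at an adjusted p of 0.05. Dnajc10, a disulfide reductase of the endoplasmic reticulum, was at 1058.7, 1049.6 and 1061.2 in 4w WT and at 923.6, 821.7 and 936.7 in 4w KO (-0.24 ± 0.07 SE, adjusted p = 0.0377). That call was lost without any 1 of 7 libraries, a P10 and a 20w library among them. The adjusted p was up to 0.203 without the second 4w KO library, the one rich in Rn45s. The difference was -0.48 with a common total (adjusted p = 0.0513), where the median of all genes was -0.24, and without the 4 libraries highest in Rn45s -0.19 (adjusted p = 0.337), both without a call. The histone chaperone gene Dnajc9 was not called at P10 by limma but was called lower in KO by edgeR (-0.38, adjusted p = 0.0355) and DESeq2 (-0.38, adjusted p = 0.0306). The heat-inducible Dnajb1 was between 363.5 and 714.2 in 20w WT and between 242.6 and 604.0 in 20w KO, and Dnaja1 was between 292.8 and 427.6 and between 263.8 and 307.7, both overlapping and without a call.

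The BAG exchange factors and Hsf1 had 0 calls in KO at each age. Bag3 was at 3940.8, 3633.3 and 3610.3 in 20w WT and at 4149.8, 3805.7 and 4159.5 in 20w KO (0.12), and the groups overlapped. Hsf1 was at 242.8, 179.3 and 254.1 in 20w WT and at 247.7, 345.9 and 273.5 in 20w KO (0.36), also overlapping. The level of Hsf1 RNA does not measure the activity of the protein.

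The most heat-inducible HSP70 genes were uneven between the libraries of a group at 20w. Hspa1a was at 225.5, 34.5 and 20.4 in 20w WT and at 23.0, 47.0 and 138.2 in 20w KO. Hspa1b was at 333.6, 37.8 and 25.1 in 20w WT and at 28.9, 58.5 and 152.4 in 20w KO. For both genes 1 library per genotype was far above the other 2, the first WT and the third KO library, and the groups overlapped without a call. Those are the libraries with the highest immediate early gene sums. Within each genotype at 20w, Dnajb1, Hsp90aa1 and Hsph1 were also highest in those libraries. Fos, an immediate early transcription factor, was at 809.8, 276.3 and 205.5 in 20w WT and at 81.7, 349.0 and 796.3 in 20w KO. Egr1 was at 1751.1, 307.6 and 428.2 and at 327.7, 1062.7 and 1485.7. Of the 13 immediate early genes 0 were called in KO at 20w. Among 14 clock genes, 1 was higher in KO at 20w, Arntl (1.204, adjusted p = 0.0134, lost without the first KO library at 0.0637 or the second WT library at 0.0778), and 4 were lower, Per2, Per3, Hlf and Tef. The Tef call was lost without the first KO (adjusted p = 0.0514) or the first WT library (0.0566) of that age. Hlf and Tef were not called without both 20w libraries highest in immediate early genes (0.1 and 0.0927) or without the 4 highest in Rn45s (0.132 and 0.0592). The hour of collection is not given in the labels, and its part was not tested. The cold-inducible Cirbp was higher in KO at P10 (0.79, adjusted p = 0.00486). The third 20w KO library was also the highest for 9 of the 10 members called higher in KO.

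Leaving out both of those 20w libraries, an alternative chosen after seeing the data, 6 members were higher in KO at 20w and 0 lower. The 6, all among the 10, were Hspb8, Hspa4l, Dnaja4, Hspb1, Hsph1 and Hsp90aa1. Cryab (0.33, adjusted p = 0.135), Dnajc11 (0.32, adjusted p = 0.144), Hspb3 (0.55, adjusted p = 0.157), Hspb7 (0.35, adjusted p = 0.163) and Hspd1 (-0.38, adjusted p = 0.0926) kept their direction but were no longer called, with 2 libraries per genotype left at that age. Without the third 20w KO library alone 5 members were called, and without the second 20w WT library 7. Of all genes 581 and 616 were then called, against 976 in the main fit. With a common total 5 were higher and 0 lower, against 128 and 280 of all 13032 genes. Without both libraries highest in immediate early genes, 169 of all genes were higher and 278 lower.

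**Figure D4:**
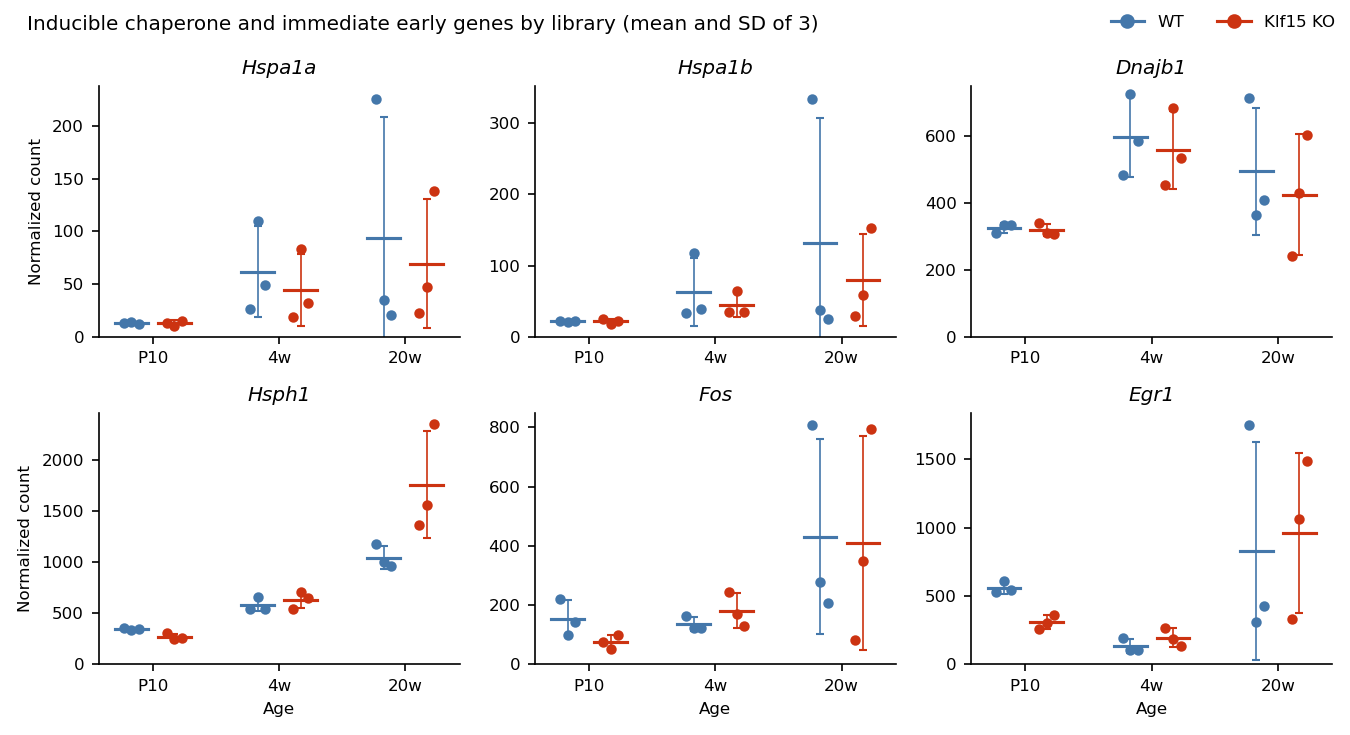
Normalized counts per library (y, linear axes from 0, where error bars are cut off) at P10, 4w and 20w (x) for the inducible chaperone genes Hspa1a, Hspa1b, Dnajb1 and Hsph1 and the immediate early genes Fos and Egr1, WT in blue and KO in red, with the mean and SD of 3 libraries. At 20w the highest WT point for Hspa1a, at 225.5, and the highest KO point, at 138.2, come from the same libraries that are highest for Fos.

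Whether the KO effect differed between ages was tested as an interaction. Between P10 and 20w it differed for 12 members, all towards higher in KO at 20w, and for 0 in the other direction, against 1.93% and 1.82% of all genes. Between P10 and 4w it differed for 2 members, both upwards, against 0.66% and 0.599% of all genes. Between 4w and 20w it was called for 0 members by limma and 0 by edgeR. Of all genes, limma called 0.0153% upwards and 0.176% downwards. At an unadjusted p under 0.05 in limma, 15 of 79 members passed for that pair of ages, against 1542 of all 13032 genes. DESeq2 called 4 there, Hspb1 (1.25, adjusted p = 0.00693), Cryab (0.57, adjusted p = 0.013), Hspa4l (0.43, adjusted p = 0.013) and Hspb8 (0.44, adjusted p = 0.0361). Of the 8227 genes with an adjusted p from DESeq2, it called 44 upwards and 113 downwards. In limma 1 was called without the first and 2 without the second 20w KO library, all upwards, against 1 and 34 of all genes called upwards.

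Hspa4l had the smallest adjusted p of the P10 to 20w interactions, with a KO effect 0.98 ± 0.10 SE higher at 20w (adjusted p = 2e-05). Small heat shock proteins made up 5 of the 12. They were Hspb8 (0.85, adjusted p = 0.000698), Cryab (0.81, adjusted p = 0.00283), Hspb6 (1.16, adjusted p = 0.00557), Hspb1 (1.11, adjusted p = 0.0379) and Hspb3 (0.82, adjusted p = 0.048). The others were Hsph1 (1.08, adjusted p = 0.0062), Dnaja4 (0.66, adjusted p = 0.0209), Hsp90aa1 (1.10, adjusted p = 0.0317), the mitochondrial and cytosolic J protein genes Dnajc11 (0.50, adjusted p = 0.0465) and Dnaja2 (0.40, adjusted p = 0.0459), and Bag2, an inhibitor of the ubiquitin ligase CHIP (0.44, adjusted p = 0.0479). Dnaja2 and Bag2 were not called at either age alone. Hspa4l, Hspb8, Cryab, Hspb6 and Hsph1 held without any 1 library. The other 7 were lost without any 1 of 3 (Dnaja4) to 14 libraries (Bag2), with highest adjusted p of 0.06 for Dnaja4 and between 0.0871 and 0.139 for the rest. For Bag2, Dnajc11, Dnaja2 and Hspb3 these libraries included 4w libraries, which do not enter that difference. With a common total Dnaja4, Dnajc11, Dnaja2, Bag2 and Hspb3 were not called (adjusted p between 0.131 and 0.547), and without the 4 libraries highest in Rn45s neither were those 5 and Hspb1 (0.066 to 0.167). With no filter on low values the 7 except Dnaja4 were not called (0.0597 to 0.0807). Bag2 (0.0514), Dnajc11 (0.0502) and Hspb3 (0.0591) were not called by edgeR. The count was 5 without the second P10 WT or the third P10 KO library, 6 without the third P10 WT or the third 20w KO library, and 7 without the second P10 KO library or any 1 of the 20w WT libraries.

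From P10 to 4w, the effect on Hspa4l moved by 0.56 ± 0.10 SE (adjusted p = 0.00833), from lower in KO to level with WT, and this held without any 1 library. It was not called with a common total, where it was 0.32 (adjusted p = 0.531), or without the 4 libraries highest in Rn45s (0.50, adjusted p = 0.0976). The effect on Hspa8 moved by 1.23 ± 0.29 SE (adjusted p = 0.042), and was lost without any 1 of 11 libraries (up to 0.104), with a common total (0.99, adjusted p = 0.0911), with no filter (0.0827) and without the 4 libraries highest in Rn45s (0.151). The count of 2 was 1 without any 1 of 10 libraries. For Hspd1 the KO effects of -0.40, -0.45 and -0.31 did not differ by the test between any pair of ages.

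**Figure D5:**
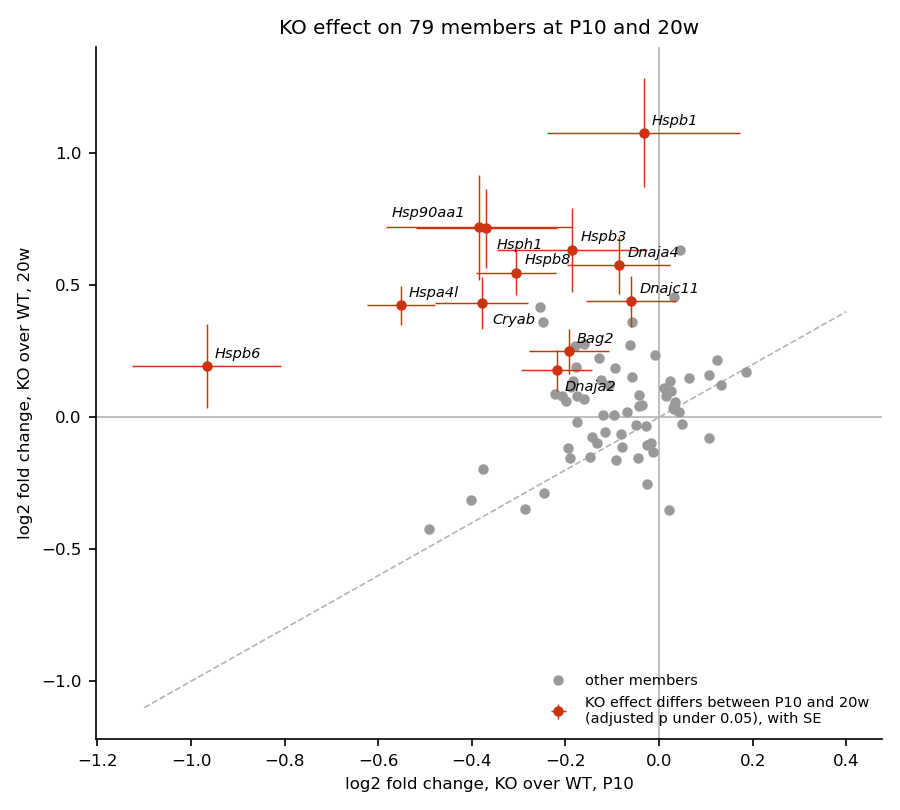
Log2 fold change of KO over WT at P10 (x) and at 20w (y) for the 79 members. The 12 red points, with bars of 1 SE, had a KO effect that differed between the ages, and all lie above the dashed line of equal effects. Hspb6 lies furthest left at -0.97 and Hspb1 highest at 1.08.

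Partners outside the name rule were read from lists chosen with earlier results of these data known. Of the 20 co-chaperones of HSP90 and HSP70, 2 were higher in KO at 20w and 0 were called at P10 and 4w. Both are known for their part in myosin folding. Smyd1, a muscle methyltransferase, was at 9803.5, 9607.2 and 9675.0 in 20w WT and 11207.7, 11475.6 and 12969.9 in 20w KO (0.29, adjusted p = 0.0117). Unc45b, the myosin chaperone that works with HSP90, was at 3262.6, 3329.0 and 3285.6 and at 3695.3, 4317.7 and 4348.9 (0.32, adjusted p = 0.0437). Neither pair of groups overlapped. The Smyd1 call was lost without the third 20w KO library (adjusted p = 0.0801). The Unc45b call was lost without any 1 of 9 libraries, P10 and 4w libraries among them (up to 0.169, without the third 20w KO library). Neither was called with a common total (adjusted p = 0.383 for Smyd1 and 0.3 for Unc45b). The same held without both 20w libraries highest in immediate early genes (0.135 and 0.257) and without the 4 libraries highest in Rn45s (0.0868 and 0.242). In WT, 14 of the 20 were higher and 1 lower at 4w than at P10. The immunophilins Fkbp5 (2.51, adjusted p = 6.52e-08) and Fkbp4 (0.95, adjusted p = 1.62e-08) and the HSP90 activator Ahsa1 (0.77, adjusted p = 1.06e-07) were among the higher. Serpinh1, the collagen chaperone, was lower (-0.53, adjusted p = 0.00476).

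Of 5 clients and partners of Hspb8 and Bag3 in chaperone-assisted autophagy, 3 were higher in KO at 20w and 0 at P10 or 4w. Sqstm1, the autophagy receptor p62, was at 5511.8, 5062.6 and 5928.3 in WT and at 7219.6, 6411.8 and 7544.0 in KO (0.36, adjusted p = 0.00684). Flnc, filamin C, was at 10063.5, 10197.6 and 10120.4 in WT and at 11148.1, 17496.6 and 30398.3 in KO (0.84, adjusted p = 0.0131). The Flnc values were nearly equal in WT and widely spread in KO, with the third library highest as for Hspb1 and Hsph1. Des, desmin, was at 21134.1, 20303.2 and 19306.1 and at 21796.6, 26005.6 and 28851.3 (0.33, adjusted p = 0.0365). The Sqstm1 call was lost without the second 20w WT library (adjusted p = 0.0521) and the Des call without any 1 of 5 libraries (up to 0.202, without the third 20w KO library). Without both 20w libraries highest in immediate early genes, Sqstm1 (0.31, adjusted p = 0.0926), Flnc (0.46, adjusted p = 0.0894) and Des (0.27, adjusted p = 0.21) were not called. Without the third 20w KO library alone, Flnc was 0.46 and still called (adjusted p = 0.0393). With a common total Sqstm1 (0.35, adjusted p = 0.254) and Des (0.32, adjusted p = 0.322) were not called. Flnc (adjusted p = 0.113) and Des (0.219) were not called without the 4 libraries highest in Rn45s.

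Of 15 folding and degradation genes of the endoplasmic reticulum, 2 were lower in KO at 4w and the same 2 at 20w, and 0 were higher. Herpud1, a part of the degradation complex, was at 4438.9, 4294.5 and 4992.0 in 20w WT and at 2946.4, 3515.2 and 2692.3 in 20w KO (-0.59, adjusted p = 0.00268). At 4w its difference was -0.45 (adjusted p = 0.0225). Xbp1, a transcription factor of the unfolded protein response, was at 861.5, 852.0 and 895.5 and at 717.4, 732.5 and 732.2 at 20w (-0.26, adjusted p = 0.0154), and its difference at 4w was -0.24 (adjusted p = 0.0273). The Xbp1 call at 20w was lost without the third WT library (adjusted p = 0.0724) and with a common total (-0.26, adjusted p = 0.495). It was also lost without both 20w libraries highest in immediate early genes (0.0855) and without the 4 libraries highest in Rn45s (0.0835). At 4w the Herpud1 call was lost without any 1 of 3 libraries (up to 0.139) and the Xbp1 call without any 1 of 5 (up to 0.136). None of the KO libraries reached the WT range in these comparisons at 20w. The endoplasmic members Hspa5, Hsp90b1 and Dnajc3, which answer to the same stress response, were not called in KO at any age in limma. DESeq2 called Hspa5 lower at 4w (adjusted p = 0.0206). Dnajc10, also endoplasmic, was lower in KO at 4w in limma (-0.24, adjusted p = 0.0377), a call lost without any 1 of 7 libraries.

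Hspa5, Hsp90b1 and Dnajc3 were also the members with an endoplasmic reticulum stress element, searched on both strands as CCAAT, any 9 bases and CCACG. It was in 3 of 82 member promoters (3.66%), against 37 of 32851 (0.11%). The stretches, from RefSeq promoters of GRCm38.p6 and read along the gene's strand, are shown because they carry the element that links these members to that response, and capitals mark the element.
Hspa5, chr2:34772005-34772063, + strand: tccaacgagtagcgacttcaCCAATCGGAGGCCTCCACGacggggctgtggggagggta
Dnajc3, chr14:118937807-118937865, + strand: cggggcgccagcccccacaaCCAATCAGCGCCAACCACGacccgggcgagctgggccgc
Hsp90b1, chr10:86705513-86705676, - strand: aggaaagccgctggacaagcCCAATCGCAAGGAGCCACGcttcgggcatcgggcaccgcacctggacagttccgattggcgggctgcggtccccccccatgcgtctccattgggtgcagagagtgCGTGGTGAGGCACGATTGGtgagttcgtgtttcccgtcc
Hsp90b1 holds 2 matches, the second on the opposite strand. Hspa5 and Hsp90b1 stood at 9880.0, 9410.8 and 9263.4 and at 6773.6, 6038.7 and 7168.0 in 20w KO, against 10242.0, 10176.3 and 10120.4 and 5729.5, 6911.4 and 7278.6 in 20w WT. The Hspa5 groups did not overlap, with a log2 fold change of -0.10 that did not pass the test, and the Hsp90b1 groups overlapped.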

How the data were processed

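The authors deposited 1 table of DESeq2-normalized counts per gene (a signal unit here) for 18 ventricle libraries. Per the submitters' processing notes, Bowtie2 2.0, the mm9 build and DESeq2 were used; for the read counter, strand setting and annotation the sources used here give nothing. Whole reads could be recovered from the deposited normalized counts for 100.0% of values within 0.001. Genes with a mean of at least 10 were tested on log2(value + 1) with limma 3.58.1 in R 4.3.3, with 6 group means over all 18 libraries (12 residual degrees of freedom), a mean-variance trend, two-sided tests and Benjamini-Hochberg adjustment over 13032 genes. A fold change is on that log2 scale. Named are the members called in any KO comparison, the leading WT changes by adjusted p, and the leading genes of each list; others were chosen after their values were seen. Members and lists were chosen with earlier results of these data known. edgeR 4.0.16 and DESeq2 1.42.0 were run on recovered reads. In limma, leaving out a library that does not enter a comparison kept the log2 fold change of that comparison. Only the shared spread and the adjustment moved. The limma fit was tested on simulated counts, where more than the nominal share of the 20w calls was false, so an adjusted p near the threshold at 20w is less firm than its value.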

Additional observations from a re-analysis of the deposited data

Results flagged for a closer look

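These results drew attention because a test found the KO effect to differ between ages. From P10 to 20w the log2 difference between KO and WT moved up by 0.98 for Hspa4l, 0.85 for Hspb8, 0.81 for Cryab, 1.16 for Hspb6, 1.08 for Hsph1, 0.66 for Dnaja4, 1.1 for Hsp90aa1 and 1.11 for Hspb1. It moved up by 0.4 for Dnaja2, 0.5 for Dnajc11, 0.44 for Bag2 and 0.82 for Hspb3. From P10 to 4w it moved up by 0.56 for Hspa4l and by 1.23 for Hspa8. All P10 libraries held both Xist and Ddx3y RNA and the later ones almost only Ddx3y, and the part of that difference was not tested.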

How the results depend on the processing

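Counts are of members called. The calls among all genes moved too, given here for the main fit, a common total and library quality weights in turn. They were 295, 109 and 1384 at P10 and 976, 408 and 1032 at 20w. In WT from 4w to 20w they were 3273, 1771 and 3886. For the change of the KO effect from P10 to 20w they were 488, 161 and 1004. Leaving out 1 library gave 2 to 6 at P10, 2 to 5 at 4w and 5 to 15 at 20w, 38 to 47 in WT from P10 to 4w and 9 to 21 from 4w to 20w, and for the change of the KO effect 1 to 2 (P10 to 4w), 5 to 14 (P10 to 20w) and 0 to 2 (4w to 20w). The 5 and 15 at 20w came without the third and the first 20w KO library, where 581 and 1165 of all genes were called. Scaling to a common total gave 2 at P10, 5 at 20w, 7 in WT from 4w to 20w, and 0, 7 and 1 for those changes of effect. Of all genes, 92 were then called for P10 to 4w and 12 for 4w to 20w, against 164 and 25 in the main fit. Without the 4 libraries highest in Rn45s the counts were 2 at 4w, 5 at 20w, 6 in WT from 4w to 20w, 0 for P10 to 4w and 6 for P10 to 20w. Of all genes, 212, 473, 1750, 21 and 298 were then called, against 736, 976, 3273, 164 and 488 in the main fit. Library quality weights gave 19 at P10 and 5, 19 and 2 for the changes, with 566, 1004 and 90 of all genes called for the changes. No filter on low values gave 1 and 6 for P10 to 4w and P10 to 20w, with 119 and 356 of 19425 genes called. Without both 20w libraries highest in immediate early genes, 6 were called at 20w and 6 for P10 to 20w, with 447 and 254 of all genes called. DESeq2 gave 4 for 4w to 20w, with 157 of 8227 genes called. With the replicate block the counts were 2 at P10, 11 in WT from 4w to 20w and 0 for P10 to 4w. Of all genes, 171, 2587 and 67 were then called. Libraries with the same number did not deviate together (correlations from -0.245 to 0.123), so the numbers were not taken as pairs. No call reversed among those for KO, for the change of its effect and for the leading WT changes (up to 6 per direction). The other WT calls were not checked for a reversal. With a common total, most cytosolic chaperonin subunits turned negative from P10 to 4w. The causes of these moves were not tested. Groups of 3 limit what could be called.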
